A study of Mus musculus with 14 samples.

Results

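Collagen genes were followed in the livers of 14 mice, of which 7 ate food high in fat and sucrose (HFHS) and 7 ate food low in both (LFLS). They were taken by name, as all genes whose symbol starts with Col, a number, a and a second number, and 44 of the 37681 genes in the deposited count table met that rule. Of these, 43 encode collagen chains. Col4a3bp, named after a binding partner of a type IV chain, encodes the ceramide transfer protein. Its longest run of Gly-X-Y triplets, the repeat that lets 3 chains wind into a triple helix, was 2 triplets, against 28 to 344 in the other 43. It was kept in the list because the rule took it, and counts below are over the 43 collagens unless it is named. Each library was made from polyadenylated liver RNA of 1 mouse and read as single 50-base reads. The strain, age and sex of the mice and how long they were fed are not given in the labels used here, and no group carried a named allele or drug. The comparison asked whether liver collagen transcripts differed between the 2 diets.

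Collagens are the main fibrous proteins of the extracellular matrix. Fibril-forming chains (types I, III and V) give tissue its tensile strength, type IV forms the sheet of basement membranes, type VI makes beaded microfilaments, and fibril-associated chains coat the fibrils. Chains are hydroxylated and wound together in the endoplasmic reticulum, secreted, trimmed by proteases and cross-linked by lysyl oxidases. In a healthy liver the fibril-forming chains come mostly from hepatic stellate cells and portal fibroblasts, and they build up in fibrosis. Type XVIII, whose end is released as endostatin, is by contrast made largely by hepatocytes.

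Libraries held 18219257 to 52826695 counts, and levels are given as CPM, counts scaled by library total and TMM factor to one common size. The library HFHS 1 stood apart in many collagens of several classes, so diet results that it moves are given with and without it. Sample titles carry a first number, which was 1 for replicates 1 to 4 of each diet and 2 for the other 3. The labels do not say what this title number marks, and 4953 of 17223 tested genes (28.8%) differed with it, so values within each number are given where they matter. Liver-cell markers were present at high levels in all libraries, with a summed CPM of 8 hepatocyte markers between 65922 and 131531. Fewer cells of a type and less RNA per cell cannot be told apart in whole-tissue RNA.

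Upstream sequence is shown for Col1a2 and Col3a1, which in HFHS 1 stood far above the other libraries, and for Col13a1, the collagen nearest to a diet call. The sequences are from RefSeq on GRCm38.p6, 5′ to 3′ on the gene's strand, cut from the 250 bases before the annotated start to the part free of GENCODE M21 exons. Capitals mark matches on either strand to the CCAAT box, to the TATA box letters TATAAA and to the GC box letters GGGCGG, which did not overlap one another here.
Col1a2, chr6:4505370-4505492, plus strand: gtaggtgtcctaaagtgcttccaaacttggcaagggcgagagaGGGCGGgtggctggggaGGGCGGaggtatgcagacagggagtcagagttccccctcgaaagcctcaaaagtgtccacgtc
Col3a1, chr1:45311288-45311537, plus strand: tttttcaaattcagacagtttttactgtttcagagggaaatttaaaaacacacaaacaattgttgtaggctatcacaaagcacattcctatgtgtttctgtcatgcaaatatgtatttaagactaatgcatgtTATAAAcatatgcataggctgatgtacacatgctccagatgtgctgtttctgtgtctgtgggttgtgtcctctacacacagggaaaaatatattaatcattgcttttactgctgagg
Col13a1, chr10:61979109-61979358, minus strand: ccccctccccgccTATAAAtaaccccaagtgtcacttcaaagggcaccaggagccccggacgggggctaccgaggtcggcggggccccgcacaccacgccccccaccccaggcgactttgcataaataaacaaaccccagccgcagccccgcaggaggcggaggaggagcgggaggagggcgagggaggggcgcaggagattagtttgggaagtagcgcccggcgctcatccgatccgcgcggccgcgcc
The Col1a2 stretch held GGGCGG at positions -205 and -188 from the start. The Col3a1 stretch was A and T rich, with 35.2% G and C, and held TATAAA at -117. The Col13a1 stretch had 68.8% G and C and held TATAAA at -237. Among 38 upstream windows of 35 collagen genes, 57.9% held GGGCGG, 34.2% CCAAT and 13.2% TATAAA. Over all 32851 windows of the same length the shares were 32.7%, 33.8% and 12.4%. Such matches are letters in a window and not binding sites. Col1a1 and Col14a1 are named only.

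Of the 43 collagens, 31 had enough counts to be tested, and 12 did not. The 12 were Col2a1, Col4a6, Col6a4, Col8a2, Col9a1, Col9a2, Col9a3, Col11a1, Col17a1, Col19a1, Col22a1 and Col28a1, none above 23 counts or 0.467 CPM in any library. The lowest value in the table is a count of 1, and 6 of the 12 had that as their median. Several of these are known from cartilage or epithelia, such as Col2a1 and Col9a1 of cartilage and Col17a1 of the skin's attachment to its basement membrane. Of the tested collagens 12 had a mean of at least 10 CPM, 10 lay between 1 and 10 CPM and 9 below 1 CPM.

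Type XVIII was by far the most abundant collagen transcript per length. Levels per length were CPM divided by the kilobases of the longest GENCODE transcript, so they are approximate where another isoform is used. Col18a1 had 149 CPM per kb ± 28.6 (SD, n = 7) in LFLS and 130 ± 11.9 (SD, n = 7) in HFHS. Col14a1, a fibril-associated chain, came next among collagens with 9.20 ± 1.59 and 11.8 ± 5.12 CPM per kb. A group of 4 genes followed within each other's spread, Col5a3, Col27a1, Col4a1 and Col3a1, with means over all libraries of 6.70 to 7.42 CPM per kb. By the median over libraries Col3a1 fell behind the other 3, at 5.33 CPM per kb, and HFHS 1 was its highest library. Below them came Col4a2 at 4.46, Col1a2 at 3.11, Col15a1 at 3.06, Col6a1 at 2.22, Col1a1 at 2.10 and Col13a1 at 1.89 CPM per kb, where neighbours again overlapped. Col1a1 and Col1a2 build type I collagen, the main collagen of scar tissue, and both stood far under Col18a1 by this measure.

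**Figure D1:**
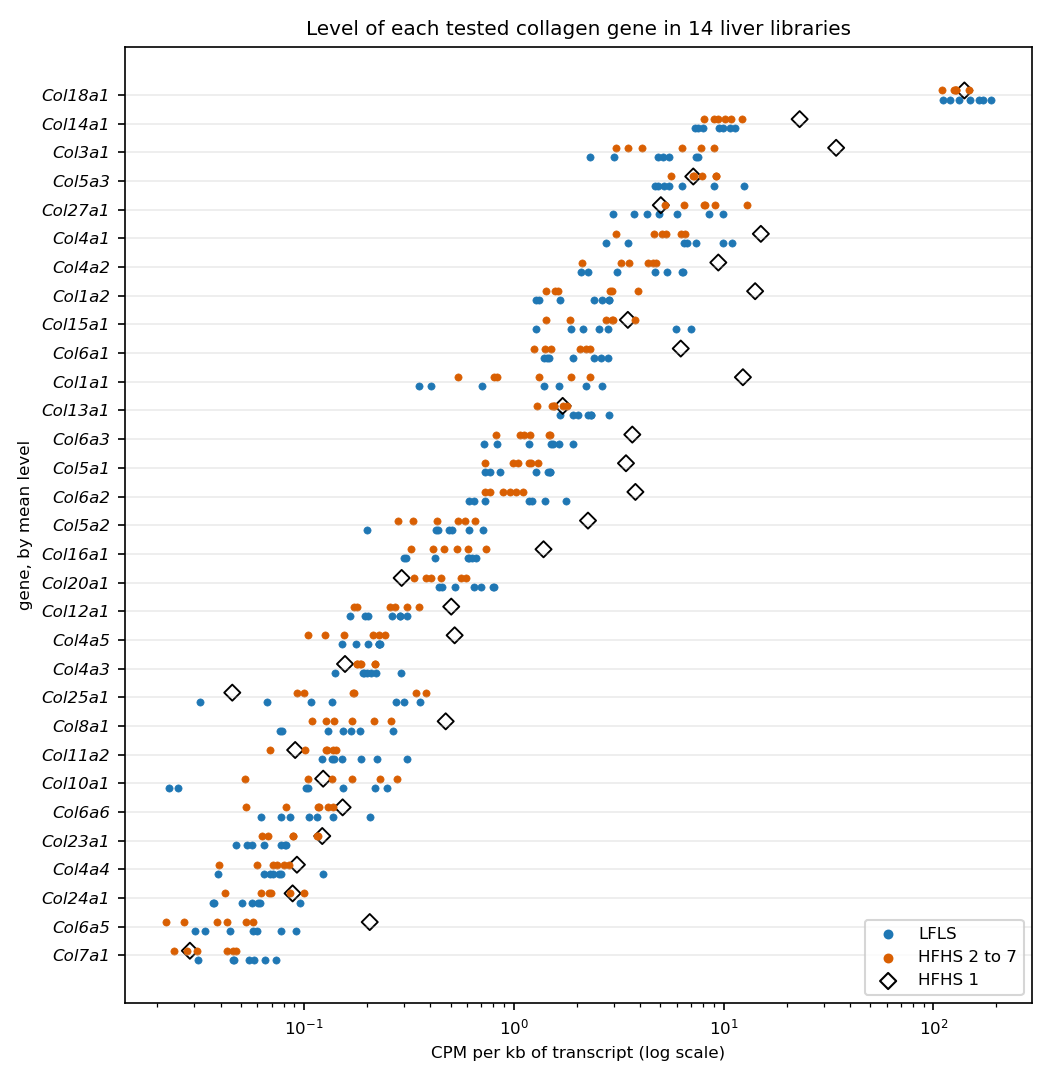
Level of each of the 31 tested collagen genes in CPM per kb of transcript on a log axis, one point per library, blue for LFLS, orange for HFHS 2 to 7 and an open diamond for HFHS 1. Col18a1 sits alone on the right, and the diamond lies to the right of the other points for genes such as Col3a1, Col1a1 and Col6a2.

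Collagen counts of all 43 genes took 0.117% ± 0.0290 (SD, n = 7) of a library in LFLS and 0.119% ± 0.0304 (SD, n = 7) in HFHS. The highest share was 0.184% in HFHS 1 (Wilson 95% interval 0.183% to 0.185%, counting error only). The next highest of all libraries was LFLS 3 with 0.153%, and the next highest HFHS library had 0.119%. Col18a1 alone made up 70.4% ± 2.21 (SD, n = 7) of collagen counts in LFLS and 63.8% ± 8.30 (SD, n = 7) in HFHS, and 46.4% in HFHS 1. Without HFHS 1 the HFHS share was lower than the LFLS share by a margin smaller than the SD of either diet.

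No collagen gene passed the diet test. With edgeR's quasi-likelihood test and Benjamini-Hochberg adjustment over 17223 genes, 484 genes (2.81%) were called, 236 higher (1.37%) and 248 lower (1.44%) in HFHS, and 0 of the 31 collagens, nor Col4a3bp, were among them. Unadjusted p was under 0.05 for 5 of 31 collagens and for 19.6% of all tested genes. DESeq2 also called 0, and limma voom with quality weights, which called 3274 genes (19.0%), called 4: Col13a1, Col11a2 and Col18a1 lower and Col27a1 higher. In the authors' deposited table the adjusted p was 1 for all 44. The log2 fold changes, HFHS against LFLS, had a median of 0.27 over the 31, with 22 positive and 9 negative, against -0.01 over all tested genes. Without HFHS 1 the median was -0.08, with 12 positive and 19 negative. For no collagen did the libraries of one diet lie wholly above those of the other, against 1.65% of all tested genes.

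**Figure D2:**
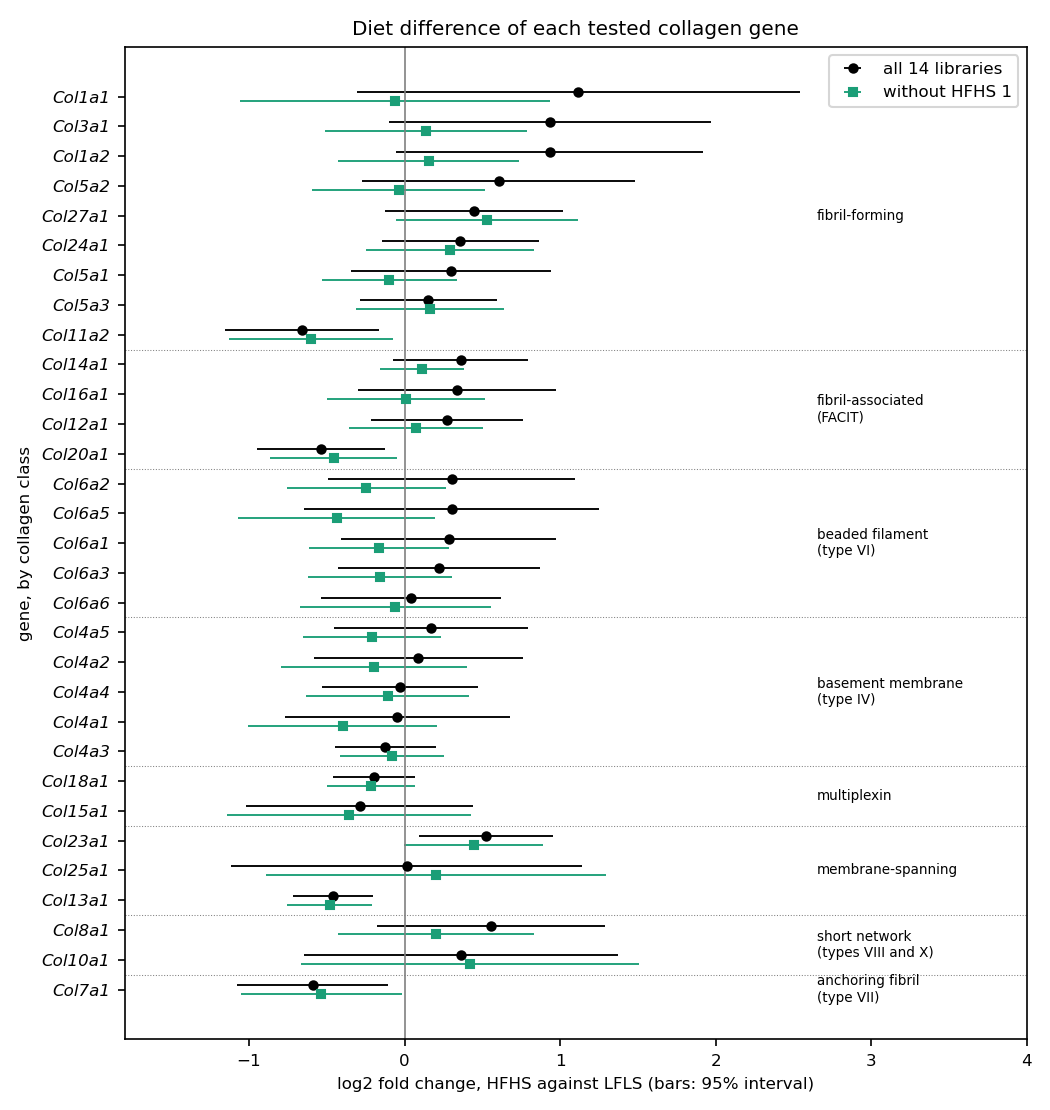
Log2 fold change of each tested collagen gene, HFHS against LFLS, grouped by class, with bars for the 95% interval, from all 14 libraries (black circles) and without HFHS 1 (green squares). The values of Col1a1, Col1a2 and Col3a1 are 0.93 to 1.12 with all libraries and -0.06 to 0.16 without HFHS 1, while those of Col13a1, Col11a2 and Col7a1 hardly move.

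Col13a1 encodes a membrane-spanning collagen known from neuromuscular junctions. It was measured at 5.26, 7.15, 6.38, 6.05, 9.01, 7.38 and 7.39 CPM in LFLS 1 to 7. In HFHS 1 to 7 it had 5.41, 4.81, 5.41, 4.92, 4.10, 4.92 and 5.65 CPM. All HFHS libraries lay under 6 of the 7 LFLS libraries, and LFLS 1 fell among them. The log2 fold change was -0.46 ± 0.12 (SE), and the adjusted p of 0.0530 (edgeR) missed the threshold. With the title number as a block, a fit that called 1540 genes (8.94%), Col13a1 was the only collagen called, at -0.45 with an adjusted p of 0.0271 (edgeR). It was also called without LFLS 1, at an adjusted p of 0.0213 (edgeR), whereas offsets for GC content and length gave -0.41 ± 0.20 (SE) with an adjusted p of 0.254, and the same offsets with the block gave -0.35 with an adjusted p of 0.172 (edgeR). The log2 fold change was -0.25 within title number 1 and -0.69 within title number 2.

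Fibril-forming chains showed positive log2 fold changes in 8 of 9 tested genes, with a median of 0.45 that dropped to 0.14 without HFHS 1. Col1a1, the main chain of type I collagen, ranged from 2.09 CPM through a median of 8.22 to 15.6 CPM in LFLS. In HFHS its lowest value was 3.21, its median 7.81 and its highest 73.3 CPM. The highest value was HFHS 1, and the other 6 HFHS libraries lay within the LFLS range. The log2 fold change was 1.12 ± 0.67 (SE), with an adjusted p of 0.372 (edgeR), and -0.06 ± 0.47 without HFHS 1. Within title number 1, which includes HFHS 1, the log2 fold change was 1.04. Within title number 2 it was 1.51 ± 0.49 (SE; adjusted p 0.145, edgeR). The 95% interval of the fold ran from 0.807 to 5.83, so with all libraries a rise was bounded far less closely than a fall.

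Col1a2, the partner chain of Col1a1 in type I collagen, lay between 6.82 and 15.3 CPM in LFLS with a median of 12.8 CPM. In HFHS it lay between 7.59 and 75.6 CPM with a median of 15.4 CPM. The log2 fold change of 0.93 ± 0.46 (SE; adjusted p 0.280, edgeR) was 0.16 ± 0.27 without HFHS 1. Col3a1, the chain of type III collagen that forms thin reticular fibres in liver, had 12.9, 28.7 and 41.8 CPM as its lowest, median and highest in LFLS. The corresponding HFHS values were 17.0, 35.1 and 191 CPM. On the log2 scale the diets differed by 0.93 ± 0.49 (SE; adjusted p 0.304, edgeR) with all libraries and 0.14 ± 0.30 without HFHS 1. The diets overlapped in both genes, with HFHS 1 highest but not alone above LFLS. For Col1a2, HFHS 2, 5 and 6 also lay above every LFLS library, at 15.6, 20.9 and 15.4 CPM. For Col3a1, HFHS 2 and 5 did, at 43.3 and 50.2 CPM. Within title number 1, which includes HFHS 1, the log2 fold changes were 0.93 for Col1a2 and 0.98 for Col3a1. Within title number 2 they were 0.98 ± 0.30 and 0.86 ± 0.39 (SE; adjusted p 0.129 and 0.264, edgeR).

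The other fibril-forming chains were less alike. Col5a1 and Col5a2, the type V chains that set fibril width, had log2 fold changes of 0.30 and 0.60, and -0.10 and -0.04 without HFHS 1. Col5a3, the remaining type V chain, ranged from 28.7 to 76.2 CPM in LFLS and from 34.2 to 56.4 CPM in HFHS. A log2 fold change of 0.15 ± 0.21 (SE) was 0.17 without HFHS 1, where its level was 43.9 CPM, near the median, and 0.36 without LFLS 3, its highest library. Col27a1, a shorter-helix fibril chain of cartilage, ranged from 22.6 through 37.4 to 75.3 CPM in LFLS and from 38.2 through 61.7 to 98.9 CPM in HFHS. The diets overlapped widely, at a log2 fold change of 0.45 ± 0.27 (SE; adjusted p 0.372, edgeR). Col11a2 stood at 1.09 CPM ± 0.400 (SD, n = 7) in LFLS and 0.687 ± 0.164 (SD, n = 7) in HFHS. At -0.66 ± 0.23 it had the lowest log2 fold change among the tested collagens (SE; adjusted p 0.137, edgeR). Col24a1 averaged 0.466 CPM over all libraries, with a log2 fold change of 0.36.

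**Figure D3:**
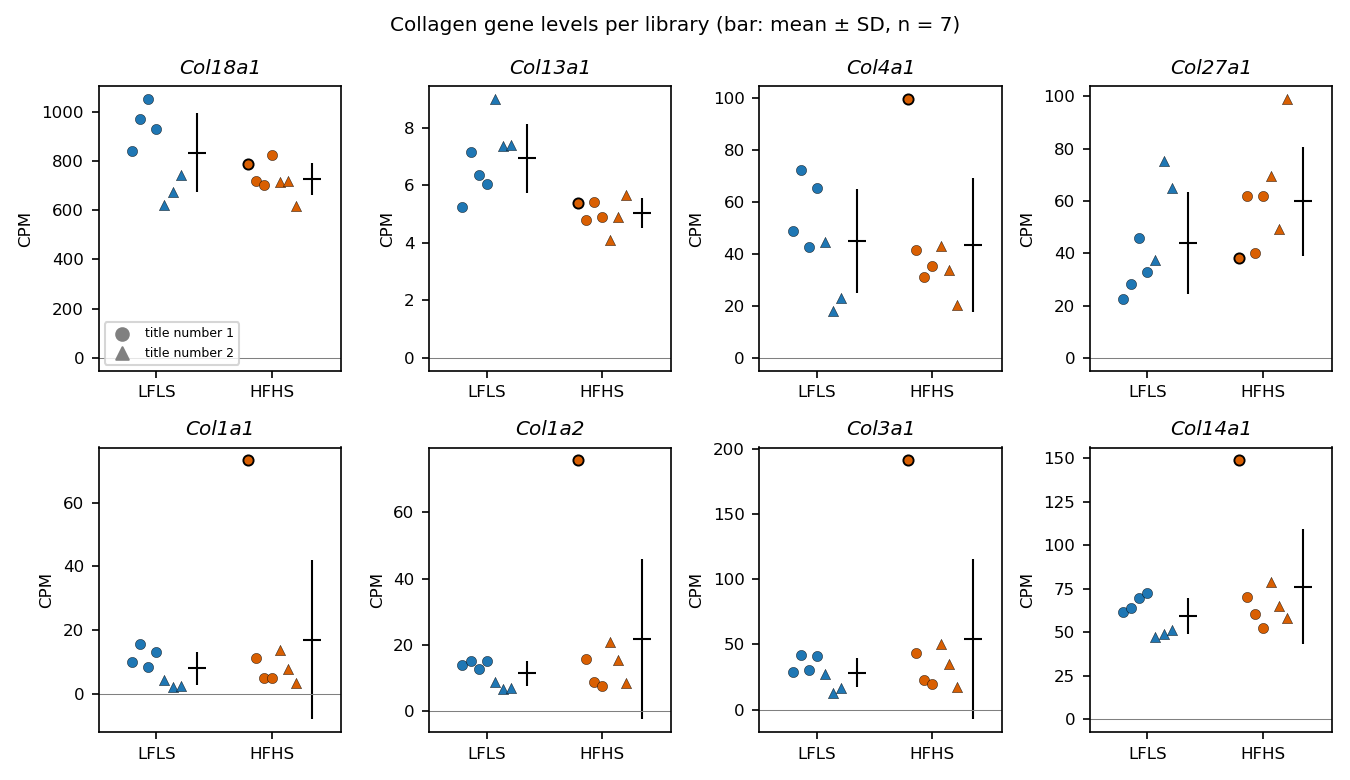
CPM of 8 collagen genes in each library by diet, with circles for title number 1, triangles for title number 2, a heavy outline for HFHS 1, and the mean ± SD (n = 7) beside the points. HFHS 1 is the top point for Col1a1, Col1a2, Col3a1, Col4a1 and Col14a1 and lies within the others for Col18a1, Col13a1 and at the low end for Col27a1.

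Fibril-associated collagens sit on fibril surfaces. Col14a1, the most abundant of them, had 47.3, 61.5 and 72.9 CPM as its lowest, median and highest in LFLS and 52.3, 65.4 and 149 CPM in HFHS. HFHS 1 was the highest, and the remaining HFHS libraries reached 78.8 CPM, overlapping LFLS. Its log2 fold change was 0.36 ± 0.20 (SE; adjusted p 0.340, edgeR), and 0.11 without HFHS 1. Within title number 1, which includes HFHS 1, it was 0.32, and within title number 2 it was 0.46 ± 0.12 (SE; adjusted p 0.0958, edgeR). Col12a1 and Col16a1 had 0.27 and 0.34, and 0.08 and 0.01 without HFHS 1. Col20a1 differed from these, with 3.13 CPM ± 0.773 (SD, n = 7) in LFLS and 2.16 ± 0.555 (SD, n = 7) in HFHS and a log2 fold change of -0.53 ± 0.19 (SE; adjusted p 0.144, edgeR). It shares 79 exon bases with an unnamed sense transcript, so its reads are partly uncertain.

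Type VI collagen, a beaded filament that anchors cells to the matrix, is built of Col6a1, Col6a2 and a further chain such as Col6a3. All 5 tested type VI genes had positive log2 fold changes with every library, with a median of 0.28, and all 5 were negative without HFHS 1, with a median of -0.16. Col6a3 had 7.30, 15.2 and 19.3 CPM as its lowest, median and highest in LFLS and 8.30, 12.02 and 37.1 CPM in HFHS. The HFHS median lay under the LFLS median while the top library was HFHS 1. The log2 fold change was 0.22 ± 0.31 (SE; adjusted p 0.721, edgeR), and -0.16 without HFHS 1.

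Whether the diet difference itself changed with the title number was tested as an interaction, which called 152 genes (0.883%) and 0 of 31 collagens by edgeR. Without HFHS 1, a library singled out after its values were seen, the interaction called 966 genes (5.57%). Of 31 collagens it called 2, Col6a1 and Col6a2, a share near that of all tested genes. Col6a1 then averaged 10.0 CPM in LFLS of title number 1 and 5.86 CPM in LFLS of title number 2. In HFHS it had 8.45, 5.80 and 5.13 CPM in HFHS 2 to 4 and 9.52, 9.06 and 6.16 CPM in HFHS 5 to 7. HFHS was thus mostly under LFLS in title number 1 and above it in title number 2, with an interaction of 1.12 ± 0.29 (SE) on the log2 scale and an adjusted p of 0.0436 (edgeR). Col6a2 had an interaction of 1.09 ± 0.27 (SE; adjusted p 0.0416, edgeR). With HFHS 1 included their adjusted p was 0.792 and 0.855 (edgeR).

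The basement membrane genes showed no common direction, with 2 of 5 tested type IV genes positive and a median of -0.03, or -0.19 without HFHS 1. Col4a1 and Col4a2 encode the chains of the widespread type IV network and start head to head on chromosome 8. Col4a1 had 18.2, 44.5 and 72.3 CPM as its lowest, median and highest in LFLS and 20.2, 35.3 and 99.6 CPM in HFHS. Its log2 fold change was -0.05 ± 0.34 (SE; adjusted p 0.956, edgeR), and -0.40 ± 0.29 without HFHS 1, the top library. Col4a2 had 13.5, 30.3 and 41.5 CPM in LFLS and 13.6, 28.2 and 60.9 CPM in HFHS. The diets coincided over most of that range, and the log2 fold change was 0.09 ± 0.32 (SE; adjusted p 0.905, edgeR) or -0.19 without HFHS 1. The 2 genes share 22 exon bases on opposite strands, and the library kit was not said to keep strand. Col4a3, Col4a4 and Col4a5, the chains of the kidney glomerulus, stood at 1.69, 0.738 and 1.42 CPM over all libraries, with log2 fold changes of -0.12, -0.03 and 0.17. Col4a5 was highest in HFHS 1, and without that library its log2 fold change was -0.21.

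The multiplexins Col18a1 and Col15a1 border basement membranes. Col18a1 had 621, 839 and 1051 CPM as its lowest, median and highest in LFLS and 616, 718 and 825 CPM in HFHS. The lowest HFHS library lay just under the lowest LFLS library, and the highest HFHS library lay within the LFLS range. The log2 fold change was -0.20 ± 0.13 (SE; adjusted p 0.397, edgeR), and the 95% interval of the fold ran from 0.726 to 1.05. Within title number 1 the log2 fold change was -0.30 and within title number 2 it was 0.01. With offsets for GC content and length, the Col18a1 log2 fold change was -0.04 ± 0.09 (SE; adjusted p 0.838, edgeR). Col15a1 had 6.58, 13.2 and 36.2 CPM in LFLS and 7.34, 15.1 and 19.6 CPM in HFHS, with the HFHS range inside the LFLS range. The diets differed by -0.29 ± 0.34 on the log2 scale (SE; adjusted p 0.675, edgeR), while the HFHS median was the higher. Without LFLS 2, its highest library, the log2 fold change was -0.0091.

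The remaining tested collagens averaged at most 1.23 CPM over all libraries. Col23a1 and Col25a1 span the membrane like Col13a1. Col23a1 had 0.374 CPM ± 0.0809 (SD, n = 7) in LFLS and 0.535 ± 0.137 (SD, n = 7) in HFHS, which is 0.52 in log2 fold change ± 0.20 (SE; adjusted p 0.170, edgeR). Col7a1, of the skin's anchoring fibrils, had 0.495 CPM ± 0.129 and 0.326 ± 0.0898 (SD, n = 7), with -0.59 in log2 fold change ± 0.23 (SE; adjusted p 0.171, edgeR). Col8a1 and Col10a1, short network chains, had log2 fold changes of 0.55 and 0.36, and 0.20 and 0.42 without HFHS 1, where Col8a1 was highest. Col25a1 had 0.01, or 0.20 without HFHS 1. Col4a3bp, the ceramide transfer protein gene that the naming rule also takes, had 44.9, 54.4 and 68.8 CPM as its lowest, median and highest in LFLS and 56.5, 61.3 and 71.1 CPM in HFHS. Its log2 fold change was 0.18 ± 0.10 (SE; adjusted p 0.348, edgeR).

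In HFHS 1 many collagens were higher than in the other libraries, unevenly by class. Of 31 collagens 17 had their highest value of all 14 libraries there, against 12.5% of all tested genes, and 15 were at least 2 times the median of the other 13, against 4.71%. This library was singled out after its values were seen. The 15 were 5 of 9 fibril-forming, 4 of 5 type VI, 3 of 5 type IV, 2 of 4 fibril-associated and 1 of 2 short network genes. Col1a1 was 9.39 times, Col3a1 6.67 times and Col1a2 5.89 times the median of the others, and Col6a5, Col5a2 and Col6a2 were 4.65, 4.60 and 3.95 times. Col18a1 was 1.09 times, Col15a1 1.27 times, Col5a3 0.999 times and Col27a1 0.777 times that median, and Col20a1 had its lowest value of all libraries there.

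**Figure D4:**
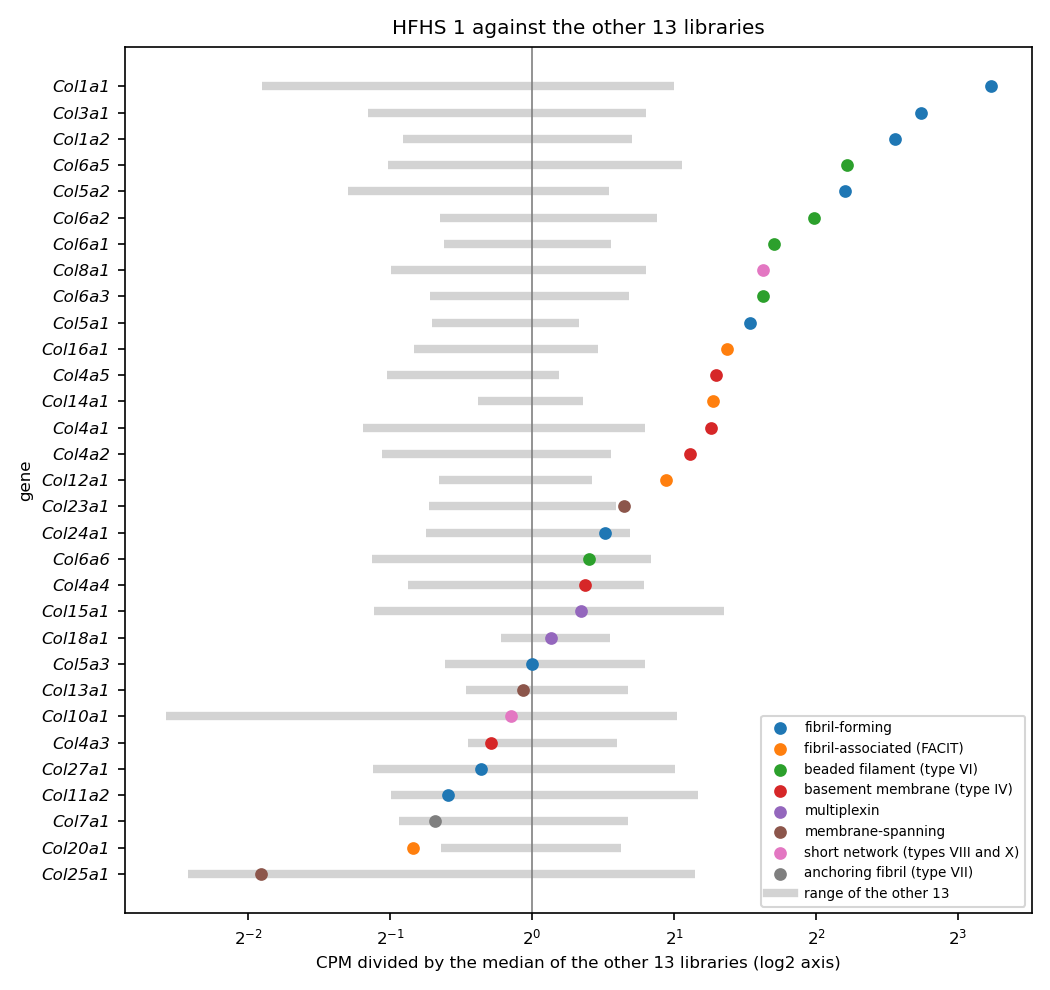
CPM of each tested collagen in HFHS 1 divided by the median of the other 13 libraries on a log2 axis, coloured by class, with grey bars for the range of those 13 libraries on the same scale. Col1a1 is farthest out at 9.39, 17 points lie beyond the upper end of their grey bar, and the multiplexins Col18a1 and Col15a1 lie within theirs.

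Marker lists of other cell types moved to differing degrees in that library, and their part in the result was not tested. The summed CPM of 12 stellate cell markers was 661 in HFHS 1 against 378 to 464 in the other 13, and 9 of the 12 were highest there. The single markers named here were chosen after their values were seen. The vitamin A enzyme gene Lrat was among the 9, with 58.5 CPM against 18.5 to 37.4 CPM. Dcn, which is also on the list of matrix partners below, made up 221 CPM of the stellate sum in HFHS 1. Portal fibroblast markers (6 genes) summed to 24.3 CPM against 7.52 to 16.6 CPM, and mesothelial markers (5 genes) to 11.4 against 4.74 to 9.42 CPM. Myofibroblast and smooth muscle markers (5 genes) summed to 27.5 CPM, within the 12.9 to 27.5 of the others. Of these 5, 2 were highest in HFHS 1, Acta2 at 4.43 CPM and Myh11 at 6.83 CPM. Endothelial markers (9 genes) summed to 490 CPM, within 316 to 564, with 3 of the 9 highest in HFHS 1. HFHS 1 ranked 2 of 14 in both sums, at 1.43 and 1.35 times the median of the others, against 1.52 times for stellate cell markers. Bile duct markers (5 genes) summed to 149 CPM against 37.0 to 74.8 CPM, most of it from Spp1 (osteopontin) at 141 CPM. Of the other 4, Epcam at 1.99 CPM was above its range of 0.766 to 1.53 CPM, and Krt19 at 1.12, Krt7 at 0.996 and Sox9 at 3.54 CPM lay within theirs. Hepatocyte markers summed to 65922 CPM, the lowest of all libraries, most of it from Alb at 46780.5 CPM. Alb, Apoa1, Serpina1a, Cps1 and Fgb were each lowest in HFHS 1, while Ttr, Apob and Hnf4a lay within their ranges.

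Between diets no tested marker of the 11 lists passed (edgeR). The filter left 0 of 5 skeletal muscle, 2 of 5 adipose tissue and 3 of 5 myofibroblast and smooth muscle markers for testing. It left 5 of 6 portal fibroblast and 14 of 17 exocrine pancreas markers, and all markers of the other lists. Stellate cell markers summed to 378 to 450 CPM in LFLS and 413 to 661 CPM in HFHS. Kupffer cell markers (6 genes) summed to 160 to 345 and 210 to 310 CPM, and adipose tissue markers (5 genes) to 1.93 to 10.1 and 3.70 to 17.0 CPM. Skeletal muscle markers (5 genes) summed to at most 4.08 CPM. Exocrine pancreas markers (17 genes) reached 1791 CPM in 1 LFLS library and 488 CPM in 1 HFHS library, but were at 16.2 CPM in HFHS 1.

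The title number was compared as well, after the data were seen. With diet as a covariate, edgeR called 10 of 31 collagens, a share near the 28.8% of all tested genes, so the count sets collagens no further apart than other genes. Col1a1, Col6a2, Col4a2, Col5a1, Col4a1, Col15a1, Col6a3 and Col18a1 were lower in title number 2, and Col27a1 and Col10a1 were higher. Col1a1 averaged 11.7 CPM in LFLS of title number 1 and 2.90 CPM in LFLS of title number 2, with 23.5 and 8.21 CPM in HFHS. All 3 LFLS libraries of title number 2 were under all 4 of title number 1. The log2 difference was -1.76 ± 0.58 (SE; adjusted p 0.0356, edgeR). GC content moved with the title number in LFLS. In each library, a gene's deviation from its mean over all libraries was correlated with its GC content. In LFLS this correlation was 0.21 to 0.60 in title number 1 and -0.25 to -0.37 in title number 2. In HFHS it was -0.21 to 0.05 in title number 1 and -0.42 to -0.11 in title number 2. Within title number 1 the diets thus did not overlap in this correlation. Tested collagens had a median GC content of 55.7% against 49.8% of all tested genes. With offsets for GC content and length, 2 of 31 collagens were called against 14.0% of all genes, Col27a1 and Col13a1, both higher in title number 2.

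Chains found in one molecule or fibril varied together across mice. Pearson's r was computed on log2 CPM over 14 libraries for 6 pairs, with permutation p-values adjusted over the 6. For Col1a1 with Col1a2 r was 0.96 (Spearman's rho 0.89) and for Col1a1 with Col3a1 it was 0.97 (rho 0.95), each with a two-sided permutation p of 2e-05, the smallest the permutations can give, and an adjusted p of 4e-05. Col4a1 with Col4a2 had r 0.95 and rho 0.88, also at an adjusted permutation p of 4e-05 for r. Col6a1 with Col6a2 had r 0.96 and rho 0.86 (adjusted permutation p for r 6e-05), and Col6a1 with Col6a3 had r 0.89 and rho 0.75 (adjusted permutation p for r 0.00048). Col5a1 with Col5a2 was the loosest pair, with r 0.83 and rho 0.64 (adjusted permutation p for r 0.0034 and for rho 0.016). The permutation p of rho before adjustment was 8e-05, 2e-05, 0.00022, 0.0002, 0.0035 and 0.016 in the same order of pairs.

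Leaving out the 2 libraries farthest from the median of the first gene, always with HFHS 1 among them, gave r of 0.92, 0.93, 0.91, 0.89, 0.77 and 0.63 for these pairs in that order. Without HFHS 1 alone, r was 0.93, 0.95, 0.92, 0.89, 0.75 and 0.58. Within the 8 libraries of title number 1, r was 0.92 to 0.98. Within the 6 of title number 2 it was 0.99 for Col1a1 with Col1a2 and 0.98 for Col1a1 with Col3a1, each with an adjusted exact permutation p of 0.0083, and 0.66 to 0.92 for the other 4, which missed the threshold after adjustment (adjusted exact permutation p 0.087 to 0.23). These pairs share libraries and depth. Per length, Col1a1 stood at 0.558 ± 0.240 (SD, n = 7) of Col1a2 in LFLS and 0.569 ± 0.166 (SD, n = 7) in HFHS. The Col4a1 to Col4a2 ratio per length was 1.58 ± 0.308 in LFLS and 1.41 ± 0.152 in HFHS (SD, n = 7), so neither ratio differed between diets beyond its spread.

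**Figure D5:**
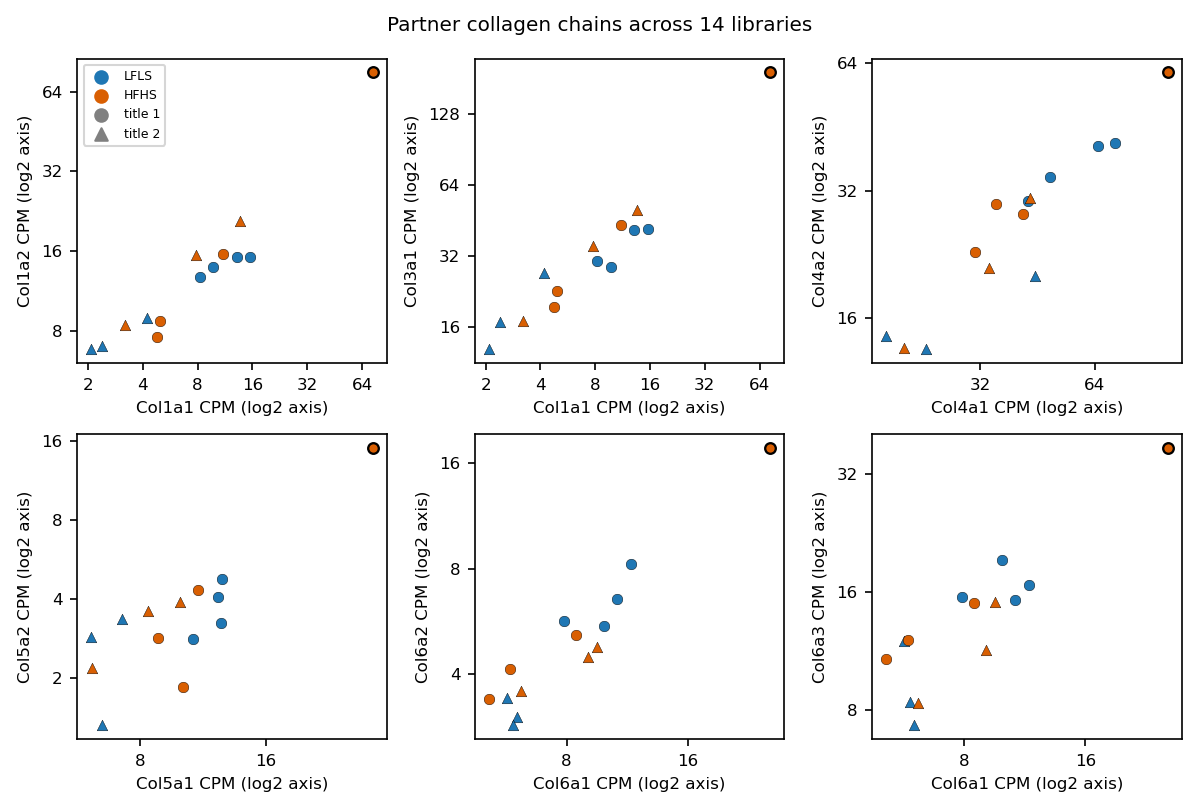
CPM of 6 pairs of collagen genes in each of 14 libraries on log2 axes, blue for LFLS and orange for HFHS, circles for title number 1 and triangles for title number 2, with a heavy outline for HFHS 1. Points follow a rising line in each panel, most loosely for Col5a1 with Col5a2, and HFHS 1 is the top right point in all 6.

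Genes that make, process, bind or break down collagen were taken from 6 lists with 92 entries, of which 79 genes were tested. Of these, 3 were called lower and 0 higher by edgeR, 3.80% against 2.81% of all genes, and the median log2 fold change was 0.05. Among 19 genes for chain hydroxylation, folding and export, 1 was lower, Lepre1 (prolyl 3-hydroxylase 1). It had 17.5 CPM ± 3.38 (SD, n = 7) in LFLS and 12.1 ± 1.33 (SD, n = 7) in HFHS, or -0.54 on the log2 scale ± 0.12 (SE; adjusted p 0.0316, edgeR). Its partner in the 3-hydroxylation complex, Ppib (cyclophilin B), had 171 ± 18.9 and 129 ± 28.3 CPM (SD, n = 7), with an adjusted p of 0.0968, or 0.0435 with the title number as a block (edgeR). Plod3, a lysyl hydroxylase, had -0.27 on the log2 scale with an adjusted p of 0.206, or 0.0428 with the block (edgeR). That block called 8.94% of all tested genes. Neither Ppib nor Plod3 was called with GC and length offsets (adjusted p 0.0901 and 0.163, edgeR) or by DESeq2 (0.329 and 0.635). Limma voom called Plod3 but not Ppib. Plod2, another lysyl hydroxylase, had 0.55 at 1.26 CPM in HFHS, and 0.27 without HFHS 1.

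No gene for propeptide cleavage and cross-linking passed (11 tested). Bmp1, the protease that removes the C-terminal propeptide, had 147 ± 25.9 CPM in LFLS and 112 ± 20.7 CPM in HFHS (SD, n = 7), with an adjusted p of 0.132 (edgeR). Adamts3, an N-propeptide protease, had a log2 fold change of 0.48, and the cross-linking enzymes Tgm2 and Loxl4 had -0.27 and -0.24. Of 12 tested genes for breakdown and its inhibitors none passed either. Mmp12, a macrophage elastase, had 0.903 ± 0.628 CPM in LFLS and 4.62 ± 6.83 CPM in HFHS (SD, n = 7), with 19.8 CPM in HFHS 1 and at most 3.51 CPM elsewhere. Its log2 fold change of 2.38 (adjusted p 0.0826, edgeR) was 1.21 without that library. Reck, a membrane-bound inhibitor of matrix proteases, had -0.54, Mmp14, a membrane-bound collagenase, had -0.43, and Fap, a fibroblast protease, had 0.52.

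Among 6 tested collagen receptors, 1 was lower. Itga10, the integrin chain that binds collagen in cartilage, had 4.06 ± 1.38 CPM in LFLS and 2.14 ± 0.479 CPM in HFHS (SD, n = 7), or -0.92 on the log2 scale ± 0.22 (SE; adjusted p 0.0369, edgeR). The receptor genes Ddr2, Lair1 and Itgb1 had log2 fold changes of 0.20, 0.16 and 0.08, and 0.07, 0.02 and 0.09 without HFHS 1. None of 15 genes of TGF-beta signalling passed, with Smad2 at 0.16, Smad4 at -0.14 and Smad3 at -0.28 on the log2 scale. Of 16 other matrix partners, 1 was lower, the plasma adhesion protein gene Vtn (vitronectin), at 1504 ± 298 CPM in LFLS and 998 ± 107 CPM in HFHS (SD, n = 7) and a log2 fold change of -0.59 ± 0.14 (SE; adjusted p 0.0319, edgeR). Fn1 (fibronectin) had 1813 ± 412 and 1262 ± 111 CPM (SD, n = 7), with an adjusted p of 0.0581, or 0.0239 with the block (edgeR). Limma voom also called Fn1, but GC and length offsets (adjusted p 0.0728, edgeR) and DESeq2 (0.141) did not. Postn (periostin) and Dcn (decorin) had 0.91 and 0.38, and 0.54 and 0.29 without HFHS 1.

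The 3 calls did not hold when single libraries were left out. Lepre1 lost its call without LFLS 2, 3 or 4 or HFHS 2, 3, 5, 6 or 7, with an adjusted p of up to 0.0674 (edgeR). Itga10 lost it without LFLS 2, 4, 5 or 7 or HFHS 1, 2, 5, 6 or 7, at up to 0.0969 (edgeR), and Vtn without LFLS 2, 3, 4 or 7 or HFHS 1, 2, 5, 6 or 7, at up to 0.0758 (edgeR). All 3 stayed negative in each of the 14 fits. In HFHS 1, 44 of the 79 genes had their highest value and 24 were at least 2 times the median of the others, against 12.5% and 4.71% of all tested genes. The share was largest among matrix partners, where 12 of 16 were highest there. Examples chosen after seeing the values are Sparc, a collagen-binding protein, at 116 CPM against 28.4 to 60.4 CPM, and Mmp2, a gelatinase, at 7.74 against 1.12 to 3.59 CPM. The 3 called genes did not share that pattern. Lepre1 had 13.3 CPM in HFHS 1, within the other libraries, and Itga10 at 1.38 CPM and Vtn at 830 CPM had their lowest values of all 14 libraries there, as did Ppib, Bmp1 and Reck.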

How the data were processed

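Whole-liver polyadenylated RNA of 14 mice was sequenced. The submitters' processing notes name TopHat, Bowtie, DESeq, CASAVA 1.8 and the mm9 build. Which counter and annotation were used is not stated in the labels. The table deposited by the authors holds whole-number counts per Ensembl gene, never below 1, and 11120 genes stood at 1 throughout. The authors' results table gives signal (means of normalised counts), a fold change as a ratio, its log2 and p-values, per the file headers. It was used for names and the adjusted p only.

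The counts went into edgeR 4.0.16 under R 4.3.3 (TMM, default filter by diet group, quasi-likelihood F test, Benjamini-Hochberg adjustment, calls under 0.05). SE is the size of the log2 fold change over the square root of F, and 95% intervals use the degrees of freedom of that test and are not adjusted over genes. CPM are TMM-scaled, and correlations used log2 CPM with a prior count of 2 and 100000 permutations. Alternatives were DESeq2 1.42.0, limma 3.58.1 voom, other scalings, filters of none or at least 1 CPM in at least 7 libraries, 1 subtracted from each count, title number or title pairs as a block, each title number alone, GC and length offsets and leaving out each library. Transcript length and GC are from GENCODE M21, for 94.9% of tested genes. The fit was tested on simulated data.

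Named in full are the 12 members with the highest CPM and any member called without covariates or with the title number block, plus up to 4 genes of each pathway list with the smallest p. A gene of these lists is not reported here. Other genes are given as ranges or said to be chosen after seeing values. The members, lists and tests were chosen with earlier results of these data known. Of the list symbols all but Mia3 matched a name. Emid2, another collagen gene that the naming rule does not take, was not analysed here. Libraries, numbered within each diet, came from separate mice.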

Additional observations from a re-analysis of the deposited data

Results flagged for a closer look

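For each of 31 tested collagens, the highest and lowest library of each diet was compared with the rest of its 7 libraries. A library stood out when its gap to the nearest other, divided by the whole range, exceeded Dixon's 95% critical value. This held in 16 of 62 groups. Chance alone gives about 1 in 20 groups, and genes share libraries, so the 62 are not independent. The highest HFHS library was HFHS 1 in 15 of the 16. The gap took 0.852 of the range for Col1a1, 0.805 for Col1a2 and 0.810 for Col3a1, the chains of types I and III. For the type V chains it was 0.786 (Col5a1) and 0.810 (Col5a2). For type VI it was 0.786 (Col6a1), 0.875 (Col6a2), 0.766 (Col6a3) and 0.810 (Col6a5). The fibril-associated genes had 0.726 (Col14a1) and 0.612 (Col16a1), type IV had 0.711 (Col4a1), 0.638 (Col4a2) and 0.670 (Col4a5), and Col8a1 had 0.588. In LFLS, Col24a1 was high in LFLS 6, at 0.575 of the range. No difference of a diet effect between title numbers was called for any collagen with all 14 libraries (edgeR interaction).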

How the results depend on the processing

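The count of 0 collagens called between diets became 1, Col13a1, with the filter of at least 1 CPM, with the title number as a block and with that block without HFHS 1, and 4 with limma voom. Leaving out each library gave 0 to 1, with the 1 without LFLS 1. The count of 3 pathway genes became 1 with library totals alone, 0 with no filter, 6 with the title number as a block, 6 in title number 1 alone, 1 in title number 2 alone, 9 with limma voom and 1 with DESeq2, and 0 to 4 when each library was left out. Over all tested genes the title number block called 1540 (8.94%) and limma voom called 3274 (19.0%). Title number 1 alone called 1484 genes and title number 2 alone called 269. The interaction count of 0 collagens was 0 to 2 when each library was left out, with the 2 without HFHS 1. The diet difference in the share of library counts taken by collagen genes, 0.00135 percentage points, ranged from -0.00949 to 0.00733.

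Some log2 fold changes changed sign. In title number 2 alone Col18a1 had 0.0142, Col4a1 0.19, Tgm2 0.0509, Loxl4 0.29, Lair1 -0.0067, Itgb1 -0.145 and Smad3 0.23, and in title number 1 alone Col4a2 had -0.0348. With GC and length offsets Col4a3bp had -0.01, Col4a1 0.0838 and Itgb1 -0.0249, and with the title number block added -0.0097, 0.0844 and, for the Itgb1 log2 fold change, -0.0199. DESeq2 gave Col5a3 -0.0076 and Itgb1 -0.0132. With limma voom Col4a2 had -0.30, Col6a3 -0.12, Col1a1 -0.0586 and Lair1 -0.0373. Under the title number block, leaving out HFHS 1 gave Col4a2 -0.0346 and Col6a3 -0.0655. Over fits that each left out 1 library, Col4a1 ran from -0.3976 to 0.1043, Col4a2 from -0.1943 to 0.2111, Col6a3 from -0.1569 to 0.3303, Col1a1 from -0.0609 to 1.36 and Itgb1 from -0.0061 to 0.1439. The cause of these changes was not tested.

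The labels do not say that title pairs share an animal, litter or day. Correlations of the pairs' deviations ran from -0.07 to 0.41, with 0.129 as the average for any 2 mice on different diets that share a title number, and not every pair exceeded 0.1, so the pairs were not used in the reported tests. With those pairs as a replicate block 0 collagens and 3 pathway genes were called. The median distance from a collagen's log2 fold change to its 95% bound was 0.636, so smaller diet differences were mostly not detectable with 7 mice a group.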
